A study of Mus musculus with 5 samples.

Results

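The genes described here are the ribosomal protein genes of the mouse, chosen by name and not by their values: every protein-coding gene whose symbol is Rpl or Rps followed by a number and at most 1 letter, Rplp0 to Rplp2, Rpsa, or Mrpl or Mrps followed by a number and at most 1 letter. The rule found 158 of the 54699 genes in the deposited table, which lists 22046 protein-coding genes. Of these, 49 belonged by name to the large and 31 to the small subunit of the cytoplasmic ribosome, and 49 to the large and 29 to the small subunit of the mitochondrial ribosome. Names do not always follow structure: Mrps18a and Mrps30 are known to sit in the large mitochondrial subunit, and are counted here by name with the small one.

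The cytoplasmic ribosome translates nuclear mRNAs, its large subunit forming peptide bonds and its small subunit decoding the mRNA, and its proteins are made in matched amounts from mRNAs that mostly start with a stretch of C and T bases, the 5′ terminal oligopyrimidine (TOP) tract, through which nutrient signals control their translation. The mitochondrial ribosome is built from other, also nuclear-encoded, proteins on 2 mitochondrially encoded rRNAs, and translates only the mRNAs of the mitochondrial genome. Most ribosomal proteins have 1 gene that all tissues use, and a few have a tissue-restricted copy, of which Rpl3l, the striated muscle copy of Rpl3, is the best known.

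The RNA came from B16F10, an established mouse melanoma line, in 5 bulk RNA-seq libraries with 1 library per group. On day 8 the groups were cells with lentiviral Myod1, the transcription factor that starts the muscle programme, cells with lentiviral Pparg, the nuclear receptor that drives fat cell formation, and cells with the empty expression vector. On day 7 they were cells with a short-hairpin RNA against Setdb1, a histone H3K9 methyltransferase, and cells with the empty knockdown vector. All 5, the controls of wild-type genotype included, had received lentivirus and were grown in DMEM with 10% FBS until the phenotype of the treated cells had changed, and the labels name neither a promoter nor a clone.

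Levels are given as FPKM, the reads of a gene divided by its length and by a library total, as deposited. A log2 ratio is the difference of log2(FPKM + 1) between 2 libraries, and a fold is the plain ratio of FPKM with a 95% interval from the reads behind it. With 1 library per group no test between groups is possible, so a member is described as at least 1.5-fold or 2-fold away from its control and is set beside the share of all 12842 genes compared that passed the same limit. Of the 158 members, 155 reached an FPKM of 1 in some library and were compared. Rpl10l, Rpl39l and Mrpl53 had no reads in any library, where 3 reads of Mrpl53, the limit that a count of 0 allows, would be an FPKM of 0.198 to 0.242.

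The libraries held 16214802 to 18300670 reads in genes. Myod1 stood at an FPKM of 260.1 in its own library and at 0 in the other 4, Pparg at 44.4 in its own library and at 0 in the other 4, and Setdb1 at 0.867 in the knockdown against 9.82 in its control. All 7 melanocyte markers were above an FPKM of 1 in all 5 libraries, with summed levels of 3110 under Myod1, 2195 under Pparg and 7583 to 8985 in the other 3. The 6 skeletal muscle markers summed to an FPKM of 30509 under Myod1 and to 4.91 to 19.5 elsewhere. The FPKM of the Myod1 library carried a smaller divisor than the others, 0.859 of the reads found in its genes against 0.976 to 1.10, so that 1 read there gives a higher FPKM. Bulk RNA cannot tell fewer cells of a type from less RNA per cell.

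The TOP tract is shown first because it is known as the shared element of cytoplasmic ribosomal protein mRNAs and the name rule did not use it. RefSeq promoter windows (build GRCm38.p6, 250 bases before to 50 after the first listed start) matched 129 of the 158 members. A C at the annotated start followed without a break by further C or T letters, at least 5 in all, was found in 12 of the 60 cytoplasmic members matched (20%), in 0 of the 69 mitochondrial ones, and in 2.49% of all 27025 promoters. The start positions are those of the annotation, and a tract displaced by a single base is not counted. The 5 windows below run from 20 bases before the start to 20 after it, with the tract in capitals. They were picked because these genes lie at opposite ends of the results: Rps27 and Rpl35 had 2 of the highest ratios under Myod1, Rpl28 the lowest under Myod1 and Pparg among large-subunit genes, and Rps21 a high and Rps18 the lowest ratio under Setdb1 knockdown among small-subunit genes.
Rps27 (chr3:90213629-90213668, minus strand): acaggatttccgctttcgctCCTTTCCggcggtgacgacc
Rpl35 (chr2:39005112-39005151, minus strand): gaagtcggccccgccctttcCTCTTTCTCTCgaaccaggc
Rpl28 (chr7:4792945-4792984, plus strand): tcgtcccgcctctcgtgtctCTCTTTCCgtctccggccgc
Rps21 (chr2:180257359-180257398, plus strand): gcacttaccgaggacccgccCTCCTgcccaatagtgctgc
Rps18 (chr17:33955646-33955685, minus strand): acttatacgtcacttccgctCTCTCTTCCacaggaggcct

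The 12 members with it had a median log2 ratio of 0.61 under Myod1, -0.20 under Pparg and 0.39 under Setdb1 knockdown, and the 46 compared cytoplasmic members with a promoter but without it had 0.48, -0.27 and 0.32. The letters CCGGAAG, the core bound by ETS family factors, were found on either strand in 40% of the cytoplasmic and 36.2% of the mitochondrial promoters and in 9.12% of all promoters. The letters CANNTG, the E-box that Myod1 and many other helix-loop-helix factors bind, were in 51.7% of the cytoplasmic and 62.3% of the mitochondrial promoters and in 72.1% of all. The form CAGCTG, which is also counted under CANNTG, was in 6.67%, 15.9% and 16.1%, and the form CACGTG, the E-box of the Myc family and likewise counted under CANNTG, in 8.33%, 7.25% and 7.24%. The letters AGGTCA repeated after 1 further base, of the kind Pparg binds with its partner, was in 0 of the 129 member promoters and in 0.044% of all. A match is a description of the letters and not of binding.

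Rpl3l is the member whose level separated the Myod1 library most, and it entered the comparison only through that library. Its 250 bases before the annotated start, shown because this is the muscle paralog, hold 3 matches to CANNTG, given in capitals.
Rpl3l (chr17:24727576-24727825, plus strand): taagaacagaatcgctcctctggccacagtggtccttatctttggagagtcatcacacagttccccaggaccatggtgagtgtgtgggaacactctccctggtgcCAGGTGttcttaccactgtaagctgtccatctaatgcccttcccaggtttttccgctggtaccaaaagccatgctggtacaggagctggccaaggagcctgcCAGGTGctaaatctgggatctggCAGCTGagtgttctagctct

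The cytoplasmic members took 4.47% of all reads under Myod1, 3.55% under Pparg, 3.76% with the empty expression vector, 5.46% under Setdb1 knockdown and 4.22% with the empty knockdown vector. The 95% Wilson intervals, which cover counting error only, as do all intervals here, did not overlap between libraries for this set and ran, for example, from 5.45% to 5.47% in the Setdb1 knockdown. The mitochondrial members took 0.513%, 0.466%, 0.348%, 0.467% and 0.424% in the same order. The cytoplasmic share was thus highest in the Setdb1 knockdown and lowest under Pparg, while the mitochondrial share was lowest with the empty expression vector and highest under Myod1. There were 8.72 cytoplasmic reads for each mitochondrial one under Myod1 and 7.62 under Pparg, against 10.8 in their control (95% interval 10.7 to 10.9). The Setdb1 knockdown had 11.7 such reads and its control 9.94. The balance of the subunits varied less: 1.38 to 1.49 large-subunit reads per small-subunit read in the cytoplasmic set and 1.92 to 2.05 in the mitochondrial set.

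**Figure D1:**
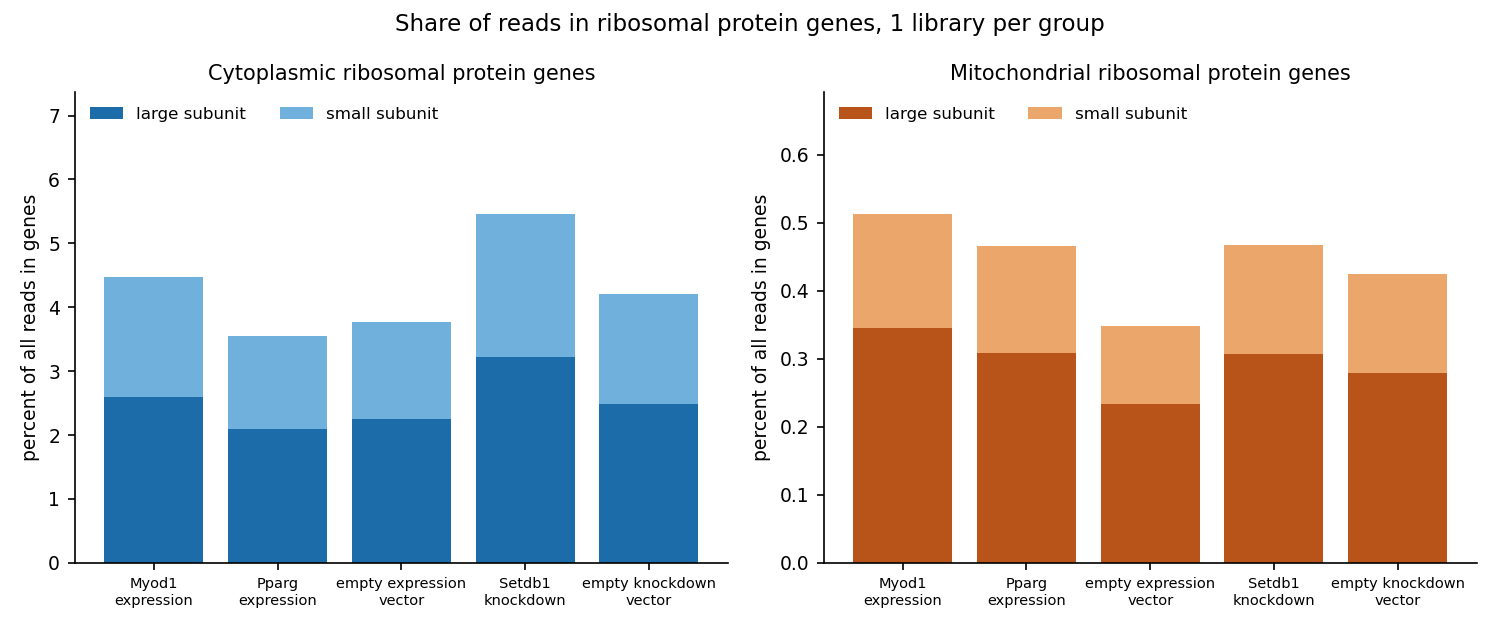
Share of all reads in genes (percent, from 0) taken by the cytoplasmic (left) and mitochondrial (right) ribosomal protein genes in each of the 5 libraries, with the large and small subunit stacked. The Setdb1 knockdown has the tallest cytoplasmic bar, 5.46%, and the empty expression vector the lowest mitochondrial bar, 0.348%.

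Levels differed widely among members. In the empty expression vector control the median FPKM was 188 for large-subunit and 260.3 for small-subunit cytoplasmic members, and 19.98 and 12.9 for the mitochondrial ones. Rplp1, an acidic protein of the stalk that recruits translation factors, was the most abundant member in all 5 libraries. It stood at an FPKM of 4826 under Myod1, 2707 under Pparg, 2447 with the empty expression vector, 4981 under Setdb1 knockdown and 2813 with the empty knockdown vector. Rplp0, the scaffold of the same stalk, followed in the control at 1266, then Rpl8 at 1165, and Rps15, Rps2 and Rpsa, which encodes a small-subunit protein known also as the laminin receptor, led the small subunit at 880.4, 868 and 598. The most abundant mitochondrial members there were Mrpl2 at 94.5, Mrpl12, a protein of the mitochondrial stalk, at 93.0 and Mrpl28 at 85.7 in the large subunit, and Mrps24 at 60.4, Mrps23 at 54.2 and Mrps21 at 45.8 in the small one. The lowest were Mrpl32, Mrpl1 and Mrpl47 at 2.14, 2.22 and 2.44 and Mrps30, Mrps22 and Mrps35 at 4.78, 5.55 and 5.72.

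Rpl3l had no reads in that control, and some of the next lowest cytoplasmic levels were those of genes with close copies or overlaps. Rps10, a protein of the small-subunit head, was listed at 1.19 in the empty expression vector control, 45 reads against 1969 on its 4 pseudogenes, and it shares its locus with the readthrough gene RPS10-NUDT3. Rpl21 was listed at 8.66 there, 481 reads against 976 on its 15 pseudogenes, and Rpl24, which has none of its name, at 7.79. Rps24 at 39.6 and Rps15a at 54.0 were the next lowest of the small subunit. Of the 80 cytoplasmic members, 58 had pseudogenes of the same name in the table, 287 in all, against 3 of the 78 mitochondrial members with 5. A coding gene overlapped 17 cytoplasmic and 25 mitochondrial members. How reads that fit several copies were assigned is not given in the sources used here, so the level of such a member is uncertain.

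Across the 5 libraries, the deposited FPKM was highest under Myod1 for 43 of the 78 cytoplasmic members compared and in the Setdb1 knockdown for 34 of them. It was highest under Pparg for the remaining member, Rpl7a, and in neither control for any. For 57 of these 78 members Pparg was the lowest of the 5 libraries, against 14.02% of all genes. After division by the FPKM sum it was the lowest for 37, against 6.28% of all genes. For the mitochondrial members the Myod1 library was highest for 57 of 77 and the Setdb1 knockdown for 13, and the empty expression vector was the lowest for 43, against 13.9% of all genes. Over all genes compared the Myod1 library was highest for 28.7% and the Setdb1 knockdown for 25.9%. This order depended on the scale: when each library was divided by its own reads, the Setdb1 knockdown was highest for 58 cytoplasmic members and Myod1 for 16, and of the mitochondrial members 27 were highest under Myod1 and 25 in the knockdown, against 19.0% and 30.7% of all genes. After division by the FPKM sum the mitochondrial members were highest in the knockdown for 23, under Pparg for 22 and under Myod1 for 17 of 77, against 27.3%, 19.3% and 16.1% of all genes, and the cytoplasmic members in the knockdown for 51 and under Myod1 for 14.

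Under Myod1 the ribosomal protein genes were higher as a body, the mitochondrial set by more than the cytoplasmic one against the control of the same day. The median log2 ratio against the empty expression vector was 0.49 for the 78 cytoplasmic members, 0.50 for the large and 0.48 for the small subunit, and 0.68 for the 77 mitochondrial members and for each of their subunits, against 0.02 for all genes. Against the other control the medians were closer, 0.38 for the cytoplasmic and 0.41 for the mitochondrial members, with 0.57 for the large and 0.35 for the small mitochondrial subunit. Of the cytoplasmic members 75 were higher and 3 lower, and of the mitochondrial members 75 were higher and 2 lower, where 51% of all genes were higher and 47.9% lower. At least 1.5-fold higher were 31 cytoplasmic members (39.7%) and 51 mitochondrial members (66.2%), against 24.4% of all genes, and no member was 1.5-fold lower, against 19.3%. At least 2-fold higher were 7 cytoplasmic and 9 mitochondrial members, against 14% of all genes. Against both controls, which differ from each other, 18 cytoplasmic (23.1%) and 30 mitochondrial members (39.0%) were at least 1.5-fold higher, against 20.1% of all genes. The cytoplasmic share of these last calls was close to the background and the mitochondrial share was above it.

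These sizes depend on the scale of the Myod1 library, whose FPKM summed to 420545 against 320189 in its control. Dividing each library by its FPKM sum moved the median of all genes by -0.28, to -0.26, with 35.4% of them higher. The median was then 0.10 for the cytoplasmic set, with 51 of 78 members higher. For the mitochondrial set it was 0.30, with 67 of 77 higher. On that scale 8 cytoplasmic (10.3%) and 9 mitochondrial members (11.7%) were at least 1.5-fold higher, below the 15.7% of all genes, and 1 member of each set was 1.5-fold lower, against 32.9%. By share of reads the cytoplasmic set was 1.19 and the mitochondrial set 1.47 times the control.

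Among the large-subunit genes, Rpl34 stood at an FPKM of 136, 53.7, 55.2, 98.5 and 61.8 in the order Myod1, Pparg, empty expression vector, Setdb1 knockdown and empty knockdown vector, an order used for all such series here. Its fold under Myod1 was 2.46 (95% interval 2.35 to 2.58), and both Myod1 and the knockdown were above the other 3 libraries. Rpl35 stood at 391, 170.2, 165, 229 and 173, with a fold of 2.37 (2.28 to 2.47), although it overlaps the coding genes Arpc5l and Wdr38. Rplp1 was 1.97-fold higher (1.94 to 2.01) and so just under the 2-fold limit. With Rpl3l and Rps27, described below, Rpl34 and Rpl35 were the only cytoplasmic members at least 2-fold above both controls, 4 of 78 where 11.9% of all genes were. Rpl3l reached the FPKM limit for comparison only under Myod1, so its count among the higher members followed from the filter. At the other end were Rpl28, at 233 against 278 (log2 ratio -0.26), Rpl3, a protein near the peptide-forming centre, at 366 against 413 (-0.17), and Rpl4 at -0.03, which is named because it completes the 3 lower members.

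Among the small-subunit genes, Rps20 stood at 134, 60.1, 56.9, 94.0 and 68.2, a fold of 2.36 (2.27 to 2.45) under Myod1 and a log2 ratio of 0.97 against the other control. Rps23 had the lowest ratio, at 276 against 263 (log2 ratio 0.07). All 31 small-subunit genes were above the empty expression vector on the deposited scale, and 28 of them above both controls, where 44% of all genes were.

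Among the mitochondrial genes the largest fold was that of Mrps23, a small-subunit protein, at 141, 76.9, 54.2, 82.0 and 62.6, 2.61-fold (2.45 to 2.78) above its control. Mrpl12 stood at 222, 122, 93.0, 86.1 and 122, 2.38-fold (2.27 to 2.50) above its control but at a log2 ratio of 0.86 against the other one. Mrpl30 stood at 52.4, 23.8, 22.7, 20.1 and 25.01 and Mrpl41 at 49.99, 34.2, 24.4, 40.6 and 20.9, and with Mrps23 these were the 3 of 77 mitochondrial members at least 2-fold above both controls, fewer than the 11.9% of all genes. Mrps28 was 2.10-fold higher (1.78 to 2.49) than its own control but only at 0.31 on the log2 scale against the other. The lower members were Mrps6 at 25.5 against 30.6 (log2 ratio -0.25) and Mrpl58, a peptidyl-tRNA hydrolase that became a ribosomal subunit, at 17.3 against 18.3 (-0.08). Mrpl48 at 0.06 and Mrps9 at 0.23 were the next lowest.

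**Figure D2:**
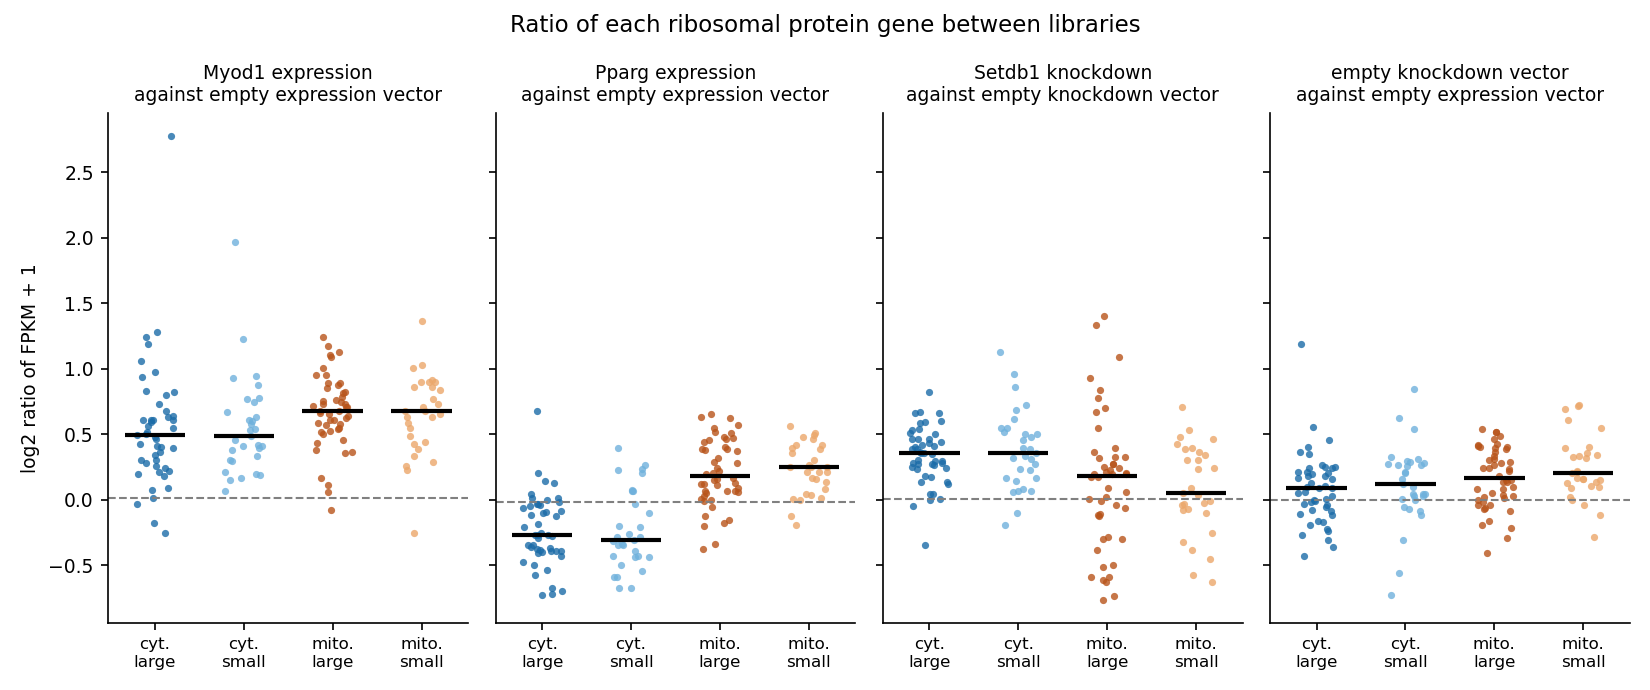
Log2 ratio of FPKM + 1 (y axis) of each compared member, 1 point per gene, by class (x axis) in 3 comparisons and between the 2 controls; black bars are class medians and the dashed line is the median of all genes compared. Under Pparg the cytoplasmic medians are negative (-0.27 and -0.30) and the mitochondrial ones positive (0.18 and 0.25), and under Setdb1 knockdown the mitochondrial large subunit spreads from -0.76 to 1.40.

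Some paralogs had reads mainly or only in 1 library, some in all and some in none. Rpl3l, at chromosome 17, 24727820 to 24736143, had 151 reads under Myod1 (FPKM 5.84), 3 reads under Pparg (0.095) and none in the other 3 libraries. Against the empty expression vector it was at least 52.3-fold higher, taking 3 reads in that library as the limit. The level remained small beside Rpl3, which stood at 366, 313, 413, 550 and 404: Rpl3l made up 1.57% of the FPKM of the pair under Myod1. The muscle isoform of the translation elongation factor, Eef1a2, was likewise highest there, with 98 reads under Myod1 (FPKM 2.99), 2 to 5 under Pparg and in the knockdown and none in the controls, beside Eef1a1 at 3112 to 4996. Rpl10l and Rpl39l, copies of Rpl10 and Rpl39 known from the male germ line, had no reads, while Rpl10 stood at 424, 232, 305, 285 and 363 and Rpl39 at 162, 90.6, 96.9, 117 and 86.3. Rps4l, listed as a pseudogene, had 6 reads in the Setdb1 knockdown and none elsewhere, beside Rps4x at 394 to 778.

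Rps27, a zinc finger protein of the small subunit, had the highest ratio of that subunit under Myod1. It stood at an FPKM of 234, 69.5, 59.0, 167 and 91.6, a fold of 3.97 (3.70 to 4.26) against the empty expression vector, and the 2 controls themselves differed 1.55-fold. Its paralog Rps27l, known as a p53 target, stood at 249, 214, 163, 268 and 238 and thus made up 51.5% of the FPKM of the pair under Myod1 and 61.5% to 75.5% in the other libraries. Another copy, Rps27rt, which was added after its values were seen, stood at 141, 80.2, 200.2, 107 and 78.8. It was highest in the empty expression vector, where Rps27 was lowest, and in the other 4 libraries both genes were highest under Myod1 and next in the knockdown. Rps27 and Rps27rt together came to 375, 150, 259, 274 and 170, so the sum varied less between Myod1 and its control than Rps27 did alone. How reads were divided between the 2 genes was not tested. Rpl22l1, the paralog of Rpl22, stood at 23.7, 8.76, 9.26, 12.3 and 11.1, 19.9% of the pair under Myod1 and 13.2% to 16.5% elsewhere. Rpl7l1 made up 14.9% to 19.9% of its pair with Rpl7, and Rpl36al 1.51% to 4.89% of its pair with Rpl36a, on 10 to 45 reads.

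**Figure D3:**
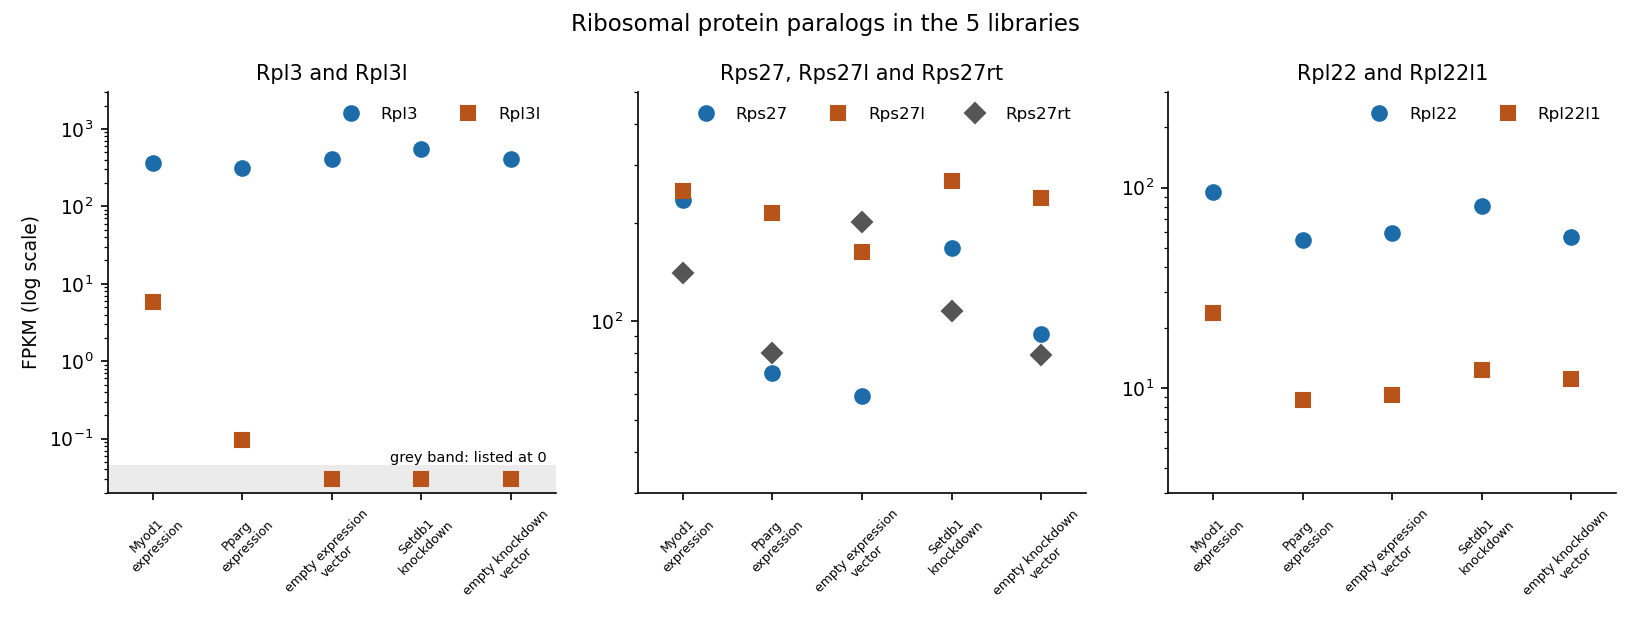
FPKM on log axes of 3 paralog groups in the 5 libraries, 1 point per gene and library; points in the grey band were listed at 0. Rpl3l is at 5.84 under Myod1, Rps27 and Rps27rt cross between libraries, and Rpl22l1 stays below Rpl22 throughout.

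Under Pparg the 2 ribosomes lay on opposite sides of the control. The comparison uses the same empty expression vector library as the Myod1 one, so that a low or high value in that library enters both. The median log2 ratio was -0.28 for the cytoplasmic members, with 63 of 78 lower, and 0.21 for the mitochondrial members, with 65 of 77 higher, against -0.02 for all genes, of which 52% were lower and 45.8% higher. Few members passed the 1.5-fold limit: 8 cytoplasmic members lower (10.3%) against 8.43% of all genes, 1 higher (1.28%) against 10.8%, and 3 mitochondrial members higher (3.90%) and none lower. Against this control these shares are near or below the background. They depend on the scale: after division by the reads 1 cytoplasmic and 17 mitochondrial members (22.1%) were at least 1.5-fold higher and none lower, against 14.8% and 5.34% of all genes. The medians were then -0.11 and 0.37, and by share of reads the sets stood at 0.944 and 1.34 times the control. Against the other control the cytoplasmic median was -0.35, 18 members (23.1%) were at least 1.5-fold lower, above the 10.3% of all genes, and 57 of 78 members were below both controls, against 39.3% of all genes. The mitochondrial median against the other control was 0.01, with 39 of 77 members higher, where 47.2% of all genes were. On the deposited scale the median difference thus held only against the library of the same day. By share of reads the mitochondrial set took 0.466% under Pparg, 0.348% with the empty expression vector and 0.424% with the empty knockdown vector. No member was 2-fold away, against 4.22% of all genes higher and 2.3% lower.

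Rpl5, which joins the large subunit with Rpl11 and the smallest cytoplasmic rRNA, stood at 123, 73.5, 122, 145 and 117, 0.605 of its control (0.584 to 0.626) and the lowest of the 5 libraries. At least 1.5-fold below both controls were 4 members, where 3.8% of all genes were. They included Rpl5, Rpl32 (579 against 923, log2 ratio -0.67) and Rpl37 (71.2 against 116, -0.69), the last 2 chosen after their values were seen. Rpl28 at 168 against 278 (log2 ratio -0.73) and Rps28 at 45.7 against 73.3 (-0.67) passed only against their own control, and Rps28 was as low in the empty knockdown vector, 43.9.

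The exception was Rpl7a, a large-subunit protein, at 119, 164, 102, 139 and 118. It was 1.61-fold higher (1.54 to 1.68) under Pparg and highest there of all libraries, while its 12 pseudogenes drew 602 reads under Pparg and 702 in the control beside its own 5584 and 2960. With those reads added its log2 ratio was 0.52 instead of 0.68, under the 1.5-fold limit. Rpl13a followed at a log2 ratio of 0.20 and Rps27l and Rps12 at 0.39 and 0.26 in the small subunit, but Rpl13a and Rps27l were below the other control. Among mitochondrial members Mrpl20 stood at 36.0, 37.8, 23.7, 32.1 and 33.6, 1.59-fold (1.45 to 1.76) above its control and 0.17 on the log2 scale above the other. Mrpl34 (78.7 against 50.4) and Mrpl45 (42.0 against 26.9), the latter named because it completes the 3 calls, each had a fold of 1.56. Mrps2 and Mrps18a led the members named for the small subunit at 0.56 and 0.51. Mrpl42, Mrpl48, Mrps18c and Mrps9 were lowest at -0.37, -0.33, -0.19 and -0.12.

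Under Setdb1 knockdown the cytoplasmic members were higher together, while the mitochondrial members lay on both sides of their control. The median log2 ratio against the empty knockdown vector was 0.36 for the cytoplasmic set and for each of its subunits, with 73 of 78 members higher and 4 lower, where 50.3% of all genes were higher and 47.4% lower. At least 1.5-fold higher were 12 cytoplasmic members (15.4%) against 21.8% of all genes, and none was 1.5-fold lower against 21.9%. Against both controls 70 were higher, where 43.1% of all genes were, and 10 were so by at least 1.5-fold (12.8%), where 15.9% were. The cytoplasmic set thus differed by a small amount in 1 direction, with fewer large ratios than genes at large against its own control. Against the other control 24 members (30.8%) were at least 1.5-fold higher, above the 20.7% of all genes, and with the trend of the ratio with GC content and length removed the median was 0.15. By share of reads it was 1.30 times the control.

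Rplp1 was 1.77-fold higher (1.74 to 1.80), at 4981 against 2813. Rps12, a small-subunit protein, stood at 128, 79.6, 66.2, 151 and 68.3, a fold of 2.21 (2.10 to 2.32), and was the single cytoplasmic member at least 2-fold above both controls. It has 23 pseudogenes, and adding their reads gave a log2 ratio of 1.07 instead of 1.13. Rps21 stood at 197, 105, 143, 225 and 115, a fold of 1.95 (1.84 to 2.07), and Rpl12, of the stalk base, at 247, 164, 162, 278 and 175, a fold of 1.59 (1.55 to 1.63). The lower members included Rpl10, at 285 against 363 (log2 ratio -0.35), Rps18 at 226 against 259 (-0.19) and Rpl27a at 201 against 207 (-0.05).

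For the mitochondrial members the median was 0.17, with 46 higher and 31 lower, and the SD of the log2 ratios over genes was 0.45, against 0.25 for the cytoplasmic set, 0.82 for all genes and 0.24 for the same members between the controls. At least 1.5-fold higher were 9 members (11.7%) and lower 7 (9.09%), against 21.8% and 21.9% of all genes. Against the other control the median was 0.31 with 59 of 77 higher, where 49.8% of all genes were. Above both controls were 44 members, against 43.1% of all genes. Mrpl54, a large-subunit protein, stood at 58.2, 43.1, 35.2, 97.3 and 36.2, a fold of 2.69 (2.43 to 2.98). Mrpl27, whose bacterial counterpart reaches into the peptide-forming centre, stood at 44.2, 42.7, 30.4, 76.3 and 29.6, a fold of 2.58 (2.32 to 2.87), and overlaps the coding gene Eme1. Mrpl57 stood at 18.4, 10.2, 9.71, 20.6 and 9.12, a fold of 2.26 (2.02 to 2.52). These 3 were at least 2-fold above both controls, where 5.8% of all genes were. Mrps18a at 0.71 and Mrps28 at 0.53 led the members named for the small subunit.

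In the other direction, Mrpl13 stood at 14.3, 11.4, 10.1, 7.12 and 12.8, 0.558 of its control (0.516 to 0.603). Mrpl42 stood at 25.9, 11.3, 14.98, 8.75 and 15.2, 0.575 of its control (0.518 to 0.638), and Mrps21 at 76.6, 58.9, 45.8, 23.9 and 37.5, 0.638 of its control (0.552 to 0.737). Mrpl42 and Mrps21 were the 2 members at least 1.5-fold below both controls, where 17% of all genes were. Mrps2 was at -0.57 against its own control and at 0.12 against the other. Genes of the same mitochondrial subunit thus had folds from 0.558, for Mrpl13, to 2.69, for Mrpl54, in 1 pair of libraries.

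**Figure D4:**
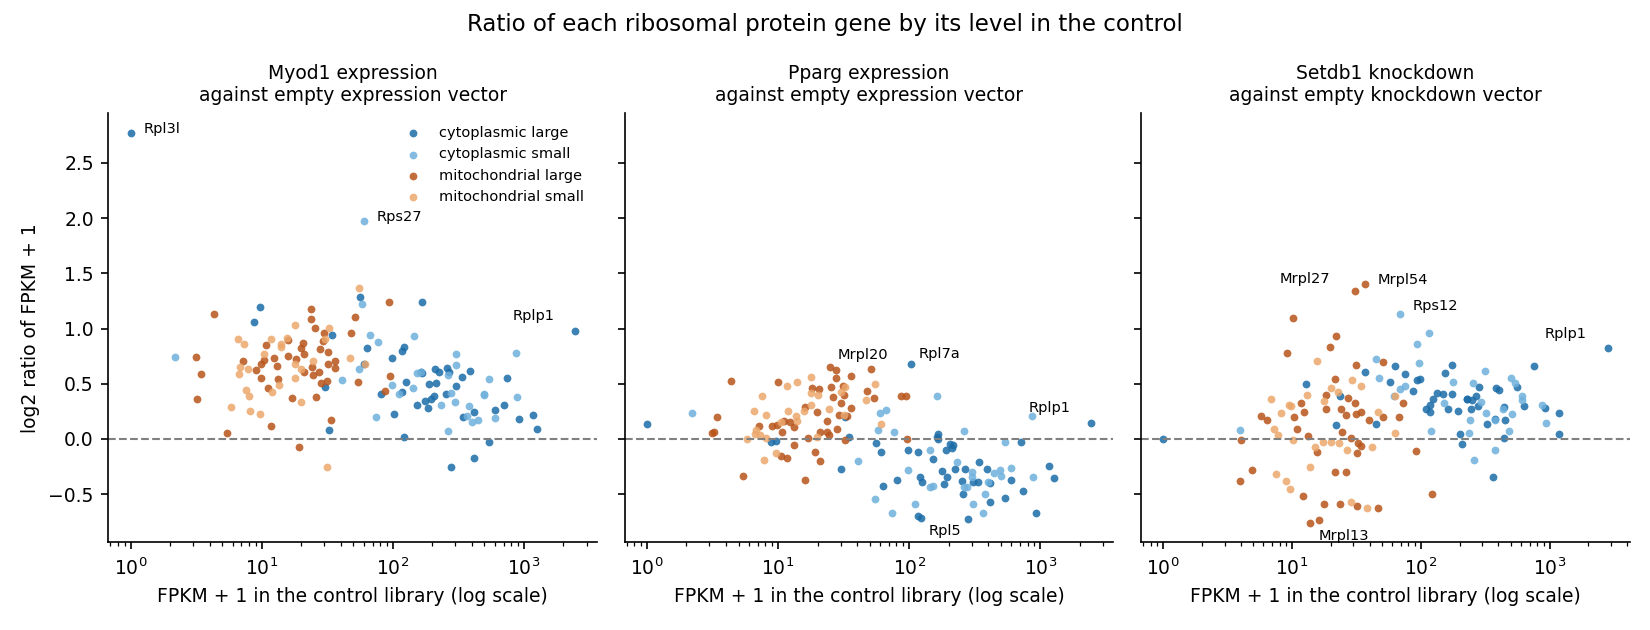
Log2 ratio of FPKM + 1 (y axis) of each compared member against its FPKM + 1 in the control library (x axis, log scale), 1 point per gene, coloured by class, with some named genes. Under Pparg 63 of the 78 cytoplasmic members lie below 0, with Rpl7a at 0.68 the highest and Rplp1 at 0.15 also above 0, and under Setdb1 knockdown Mrpl54 at 1.40 and Mrpl13 at -0.76 bound the mitochondrial members.

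The ratio went with the level of the gene in some sets. Across the 78 cytoplasmic members the Spearman correlation of the log2 ratio with mean FPKM was -0.41 under Myod1, -0.22 under Pparg and -0.20 under Setdb1 knockdown, and across the 77 mitochondrial members it was 0.31, 0.47 and 0.19. Over all genes compared these were 0.00, -0.08 and 0.03. The points share libraries and the FPKM enters both measures, so these are descriptions. With GC content, which tracked the ratio of all genes at 0.22, 0.19 and 0.39, the cytoplasmic members gave -0.05, 0.14 and -0.03 and the mitochondrial members 0.20, 0.35 and 0.24. Median GC content was 51.0% for cytoplasmic, 49.7% for mitochondrial members and 50.1% for all genes, and median length 1755, 2255 and 3783 bases. Removing the trend with GC content and length lowered the cytoplasmic median under Myod1 from 0.49 to 0.28.

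Myod1 and Setdb1 knockdown, which share no library, had some members in common. Over 155 members the log2 ratios correlated at Pearson 0.11 and Spearman 0.19, against 0.29 and 0.38 over all genes. At least 1.5-fold higher in both were 15 members, 18.3% of the 82 such members under Myod1 and 71.4% of the 21 in the knockdown. Over all genes compared it was 1014, 32.4% of the Myod1 calls and 36.2% of the knockdown calls. Set against Pparg directly, Myod1 was higher for 76 of 78 cytoplasmic members, with a median log2 ratio of 0.77, and for 73 of 77 mitochondrial members, with 0.43, where 52% of all genes were higher. At least 1.5-fold higher were 56 cytoplasmic and 24 mitochondrial members, 71.8% and 31.2%, against 21.6% of all genes. Rplp1 was 1.78-fold higher (1.75 to 1.81) in that pair. These 2 libraries have the smallest and the largest FPKM divisor, and by share of reads Myod1 stood at 1.26 times Pparg for the cytoplasmic and 1.10 times for the mitochondrial set.

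The 2 empty vector libraries give the only comparison here between control cells of this line, and they differ in vector and in day. The empty knockdown vector had a median log2 ratio of 0.09 for the cytoplasmic and 0.18 for the mitochondrial members against the empty expression vector, with 51 of 78 and 63 of 77 higher, where 46.7% of all genes were. The mitochondrial difference between controls was as large as the Setdb1 knockdown median and close to the Pparg median. At least 1.5-fold higher were 3 cytoplasmic and 4 mitochondrial members, 3.85% and 5.19%, against 4.41% of all genes, and 1 cytoplasmic member was lower, 1.28% against 5.91%. These included Rpl21, at 21.02 against 8.66, a fold of 2.43 (2.18 to 2.70), Rps10, at 2.95 against 1.19, and in the other direction Rps28, at 43.9 against 73.3. The ratios of these 3 genes in the treated libraries therefore change with the control chosen: Rpl21 was at 1.19 under Myod1 against its own control and at 0.00 against the other.

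Genes around the ribosome, in lists chosen with earlier results of these data known, did not all have its direction. The genes named from them are the extremes of their lists and Myc, chosen after their values were seen. Of 13 proteins of both ribosomes that the name rule misses, 12 were higher under Myod1, where 51% of all genes were, with a median log2 ratio of 0.52. Under Pparg 7 of them were higher, where 45.8% of all genes were, and 6 lower, with a median of 0.03. Under Setdb1 knockdown 9 were higher, where 50.3% of all genes were, and 4 lower, with a median of 0.19. The lowest there was Ptcd3, a mitochondrial small-subunit protein, at 6.15 against 15.7 (log2 ratio -1.23). A further list held 24 translation factors and other genes taken as TOP mRNAs, in whose sequences no tract was looked for. It shares Rack1 with the list of 13. Of the 24, 22 were lower under Pparg, where 52% of all genes were. Their median of -0.27 is close to that of the cytoplasmic ribosomal proteins. Under Myod1 16 were higher and 8 lower, with a median of 0.21. At least 1.5-fold lower were 7, against 19.3% of all genes and no ribosomal protein gene of the set. At least 1.5-fold higher were 6, near the 24.4% of all genes. Under Setdb1 knockdown their median was 0.19, with 7 of 24 at least 1.5-fold lower, near the 21.9% of all genes, and 2 higher, against 21.8%. The lowest was Pabpc1, the poly(A)-binding protein, at 77.6 against 245 (log2 ratio -1.65).

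The 58 compared genes of ribosome biogenesis, which make and process rRNA and assemble subunits, were mostly lower, unlike the ribosomal proteins under Myod1 and in the knockdown. Their median was -0.25 under Myod1, with 41 lower (47.9% of all genes), -0.20 under Pparg, with 47 lower (52% of all genes), and -0.48 under Setdb1 knockdown, with 47 lower (47.4% of all genes). In the knockdown 26 were at least 1.5-fold lower, against 21.9% of all genes. Between the controls 49 of the 58 were higher with the empty knockdown vector, at a median of 0.32, so that the knockdown is set against the higher of the 2 controls. The lowest were Ncl under Myod1 (14.5 against 54.5, log2 ratio -1.84), Npm1 under Pparg (76.0 against 145, -0.92) and Dkc1 under Setdb1 knockdown (2.44 against 10.9, -1.79), which encode nucleolin, nucleophosmin and the rRNA pseudouridine synthase. Of 17 regulators compared, among them Myc and Larp1, 12 were lower under Setdb1 knockdown, where 47.4% of all genes were, with a median of -0.69, 16 were lower under Pparg, where 52% of all genes were, with a median of -0.30, and 9 were lower and 8 higher under Myod1. Myc itself stood at 8.89, 10.4, 14.6, 9.31 and 23.3.

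The mRNAs of the mitochondrial genome, which the mitochondrial ribosome translates, were mostly higher under Myod1 and mostly lower under Pparg and Setdb1 knockdown. The 13 mitochondrially encoded mRNAs had a median log2 ratio of 0.54 under Myod1, with 10 higher (51% of all genes), of -0.70 under Pparg, with 11 lower (52% of all genes), and of -1.31 under Setdb1 knockdown, with all 13 lower. At least 1.5-fold away were 6 higher under Myod1, against 24.4% of all genes, 9 lower under Pparg, against 8.43%, and 12 lower in the knockdown, against 21.9%. Under Myod1 1 was 1.5-fold lower and under Pparg 1 higher. The controls also differed in these mRNAs, with ratios of the empty knockdown vector from -2.56 to 0.81 and a median of 0.06. Of the 13, 2 were at least 1.5-fold higher there and 3 lower, against 4.41% and 5.91% of all genes. The share of reads in mitochondrially encoded genes was 0.474 of the control in the knockdown, while the share in mitochondrial ribosomal protein genes was 1.10 times the control. The rRNAs of the mitochondrial ribosome stood at 241, 173, 145, 209 and 238 for the small subunit (mt-Rnr1) and 444, 361, 399, 187 and 368 for the large one (mt-Rnr2). The 33 compared genes of mitochondrial translation and ribosome assembly had medians of 0.29, 0.11 and -0.14 in the 3 comparisons.

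**Figure D5:**
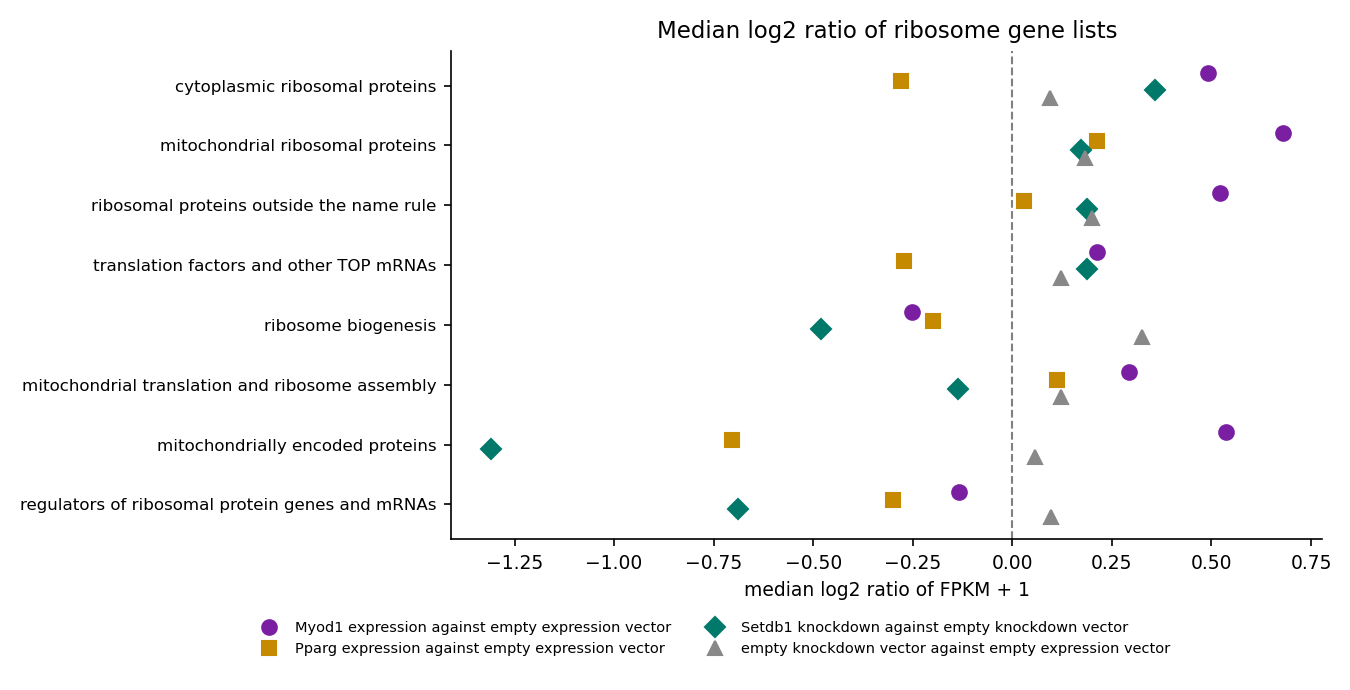
Median log2 ratio of FPKM + 1 (x axis) of 8 gene lists (rows) in the 3 comparisons and between the controls, 1 symbol per comparison. Under Setdb1 knockdown the cytoplasmic ribosomal proteins are at 0.36, ribosome biogenesis at -0.48 and the mitochondrially encoded proteins at -1.31.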

How the data were processed

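Total RNA from B16F10 cells was made into libraries with the NEBNext Ultra kit, per the labels' protocols. HISAT2, featureCounts 1.5.0-p3, CASAVA and the build GRCm38 are named in the submitters' processing notes. The authors deposited 1 table of FPKM for 54699 genes in 5 libraries. Strand, and the handling of reads that fit several genes, are not given in the sources used here. FPKM times length came out in whole multiples of 1 step in each library, for 100% of values within a tolerance of 1e-06, which gave the reads per gene; no count test was run, since each group has 1 library.

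The samples were grouped by their labels. Members were taken by name. A gene was compared where its FPKM reached 1 in any library, on log2(FPKM + 1), with a pseudocount of 1, which understates the ratios of low genes. Read shares have Wilson intervals and folds exact Clopper-Pearson intervals at the 95% level, and a count of 0 is given a limit of 3 reads. PCR reads without molecular identifiers are not independent molecules, so these cover counting error only. GC content came from GENCODE M21 transcripts and promoters from RefSeq. Python 3.11.15, pandas 2.3.3, numpy 2.4.6, scipy 1.17.1 and matplotlib 3.10.9 were used, and the scripts were tested on simulated data.

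The members, the 14 gene lists and the named-gene rule were chosen with earlier results of these data known. The rule names the 3 targeted genes, Rplp1, set paralog pairs, the 2 highest and 2 lowest ratios per class and comparison, the 3 highest and 3 lowest levels per class in the empty expression vector control, and members at least 2-fold from both controls. A few genes that the rule names are not reported here. Adipocyte markers summed to an FPKM of 301 under Pparg and to at most 0.211 elsewhere, fibroblast markers to at most 2.52 and macrophage markers to 2.60 to 20.9. Alternatives changed the pseudocount, filter, scaling, control, GC and length trend, pseudogenes, overlaps and fold limit.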

Additional observations from a re-analysis of the deposited data

How the results depend on the processing

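No paired analysis was possible because each group has 1 library and the labels give no replicate numbers. None of the 72 median log2 ratios of the whole cytoplasmic or mitochondrial set recomputed under an alternative changed sign. Of these, 22 moved by more than the median counting error of a single member, a wide limit for a median, and 50 by less. For the mitochondrial small subunit the median changed sign: under Setdb1 knockdown from 0.06 to -0.02 by the FPKM sum and -0.04 at the 75th percentile, and under Pparg from 0.25 to -0.06 against the other control. Of 42 counts at least 1.5-fold from the control, 20 stayed within 1.5 times and 22 did not. The cause of a shift was not tested.

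For Myod1 the cytoplasmic median was 0.10 after division by the FPKM sum, 0.30 scaled to the 75th percentile, 0.31 after division by the reads, 0.38 against the other control, 0.28 without the GC and length trend and 0.38 in members without pseudogenes. The mitochondrial median was 0.30, 0.50 and 0.50 under the 3 scalings and 0.41 against the other control. The counts, 31 and 51, became 9, 17 and 17 and 10, 27 and 28 under the scalings, and 7 and 9 at 2-fold. Against the other control the mitochondrial count was 32, of which 31 were higher (40.3%), against 25.1% of all genes. Under the scalings 15.7%, 19.8% and 19.8% of all genes were 1.5-fold higher, so that by the FPKM sum both sets lay below that share. These scalings moved the median of all genes by -0.28, -0.12 and -0.12.

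For Pparg the cytoplasmic median was -0.17 by the FPKM sum, -0.11 by the reads, -0.35 against the other control, -0.35 without the trend and -0.23 without pseudogenes. The mitochondrial median was 0.37 by the reads and 0.0054 against the other control. The reads moved the median of all genes by 0.10. The count of 9 cytoplasmic members became 4, 1, 18 and, at 2-fold, 0 for the FPKM sum, reads, other control and limit. By the FPKM sum 1 was higher and 3 lower, against 13.4% and 6.42% of all genes. By the reads the 1 was higher, against 14.8% of all genes. The 18 against the other control were all lower, 23.1% against 10.3% of all genes. The count of 3 mitochondrial members became 10 and 17 by the FPKM sum and the reads, 6 with a pseudocount of 0.1 and 0 at 2-fold. The 10 and the 17 were all higher, 13.0% and 22.1% against 13.4% and 14.8% of all genes. By the FPKM sum the share was thus near the background.

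For Setdb1 knockdown the cytoplasmic median was 0.28, 0.26 and 0.40 under the 3 scalings, 0.43 against the other control and 0.15 without the trend. Its count of 12 became 7 and 6 by the FPKM sum and the 75th percentile, 24 against the other control and 1 at 2-fold, where 19.6%, 19.1% and 20.7% of all genes were at least 1.5-fold higher under the first 3, so that only the 24 (30.8%) lay above that share. The mitochondrial count of 16 became 3 at 2-fold. At that limit the 1 cytoplasmic and 3 mitochondrial members were all higher. Of the 12842 genes compared, 1200 were then higher and 1326 lower. The mitochondrial median of 0.17 ranged from 0.08, at the 75th percentile or without the trend, to 0.31 against the other control. Division by the reads, added pseudogene reads and members without overlaps were chosen after seeing the data. Depth limits Rpl3l, with 3 reads under Pparg, and Rps10, with 45 in a control.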
